A study of Mus musculus with 6 samples.

Results

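The genes described here are 10 genes through which the heart takes up, binds, stores and releases fatty acids. They were chosen by function, with earlier results of these data known. They are the rows of the count table with the symbols *Gpihbp1*, *Lpl*, *Cd36*, *Fabp3*, *Fabp4*, *Dgat1*, *Dgat2*, *Plin2*, *Plin5* and *Pnpla2*. All 10 were found among the 13809 genes of the table. RNA was sequenced from hearts of mouse embryos at embryonic day (E) 18.5, in 3 libraries from wild-type (WT) embryos and 3 from *Pkm1* knockout embryos (pkm1-KO, here KO), which carry a small CRISPR/Cas9 deletion in the *Pkm1*-specific exon of *Pkm*. The line was made in BDF1 zygotes, the deletion is present in every cell of the embryo and not only in cardiomyocytes, and the study describes the tissue as ventricular. The comparison of KO with WT asks how the loss of PKM1, the pyruvate kinase isoform that completes glycolysis in muscle, goes together with RNA for the handling of the other main cardiac fuel. The study also describes lower PKM2 in this line, perhaps as a secondary effect. It therefore allows that the phenotype may not come from the loss of PKM1 alone.

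Fatty acids reach the heart bound to albumin or as triglyceride in lipoproteins. Lipoprotein lipase (*Lpl*), made by the heart's parenchymal cells, is carried across the capillary endothelium by GPIHBP1 and splits the triglyceride there. CD36 eases entry through the membrane, and the fatty acid binding proteins FABP3, of cardiomyocytes, and FABP4, of capillary endothelium, adipocytes and macrophages, hold the acids in the cytosol. What is not burnt is esterified by the acyltransferases DGAT1 and DGAT2, kept in droplets coated by perilipins such as PLIN2 and PLIN5, and set free again by adipose triglyceride lipase (ATGL, the product of *Pnpla2*). The fetal heart draws on glucose and lactate, and its use of fatty acids increases after birth.

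The libraries held 15597756 to 19875546 counts in WT and 15567624 to 18577404 in KO. Since the columns of the table give the genotype without a replicate number, the libraries are called WT a, b and c and KO a, b and c in column order. Counts were scaled to CPM, counts relative to a common library size, with edgeR's TMM factors. No member had fewer than 100 counts in any library. The targeted gene *Pkm* had 1318 ± 41.1 CPM in WT against 542 ± 10.1 CPM in KO (SD, n = 3 each) and was lower in all KO libraries. WT c stood somewhat apart from its group: the chi-square of counts per degree of freedom was 3.24 and 3.76 against the other WT libraries, while every other pair of one genotype gave 1.56 to 1.88. The genotypes also differed in sex-linked RNA, with *Xist* at 5.26 ± 0.50 CPM in WT against 2285 ± 47.6 CPM in KO (SD, n = 3 each) and 4 of 4 Y-linked genes at 0 counts in KO, so that sex and genotype cannot be told apart in any value that follows. All 12 cardiomyocyte markers listed were present, and together they gave 137843 to 141830 CPM in WT against 130061 to 131486 CPM in KO. *Ttn* made up most of that sum, with a mean of 78884 CPM in WT and 76438 CPM in KO.

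In whole tissue, fewer cells of a type and less RNA per cell cannot be told apart, and this holds for every difference given here. Of the 10 members, all of which passed the filter on low counts, 5 were lower in KO at an adjusted p below 0.05 (edgeR quasi-likelihood test, Benjamini-Hochberg over the 13804 genes tested), 0 were higher and 5 were not called. The called members were those with most CPM, at 75.8 to 839 in WT, against 6.87 to 29.7 for the others. Of those not called, *Dgat1* (0.16), *Gpihbp1* (-0.14) and *Plin2* (0.13) had log2 fold changes larger in size than that of the called *Fabp4* (-0.10). The part of abundance in the calls was not tested. Over all genes tested, 30.3% were called, 15.7% as lower and 14.6% as higher. The median log2 fold change of the members was -0.12, against 0.00172 for all genes. The changes were small: the median absolute log2 fold change was 0.147 for the members and 0.131 for all genes, and no member changed by 1.5-fold. The WT and KO libraries did not overlap for 6 of the 10 members, against 42.4% of all genes tested. The share of all counts that fell on the members was 0.247% to 0.253% for WT libraries, against 0.205% to 0.212% for KO libraries. Most of these counts came from *Lpl*, *Fabp3* and *Cd36*, with 14469, 12644 and 8724 of 43042 in WT a.

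**Figure D1:**
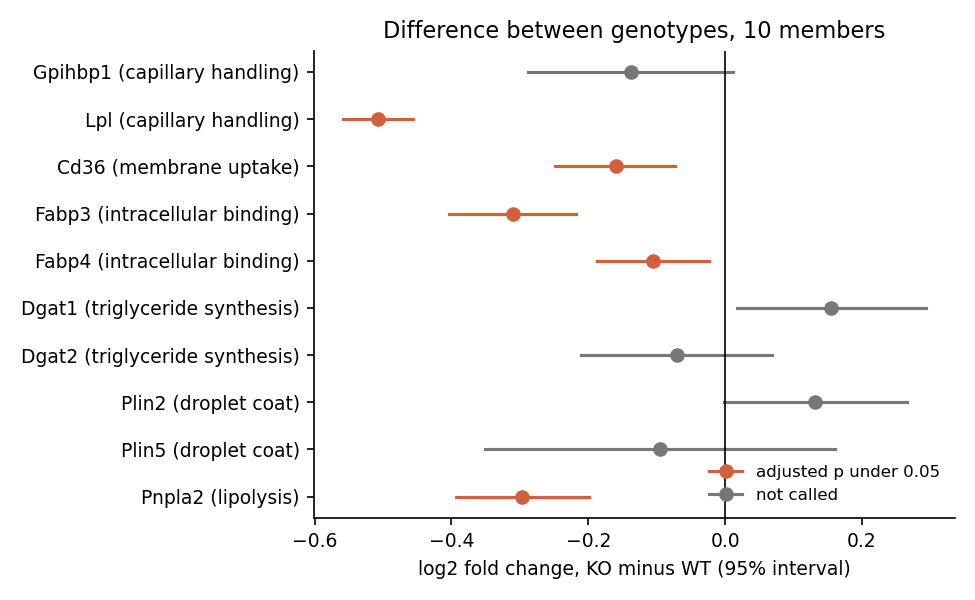
The log2 fold change of each of the 10 members (x axis, KO minus WT) is drawn as a point with its 95% interval from the edgeR fit, by role from capillary to lipolysis (y axis). The 5 called members, in orange, lie to the left of 0, and *Lpl* lies farthest left at -0.51.

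To compare levels between genes, CPM was divided by the length of each gene's principal coding transcript. *Fabp3* was the most abundant member by far, with 982 ± 113 CPM per kb in WT (SD, n = 3). *Fabp4* followed with 256 ± 12.3, *Lpl* with 204 ± 0.499 and *Cd36* with 137 ± 13.4 CPM per kb. *Pnpla2* (42.1 CPM per kb) and *Gpihbp1* (28.9) were intermediate. *Plin2* (15.7), *Dgat1* (15.0), *Dgat2* (12.4) and *Plin5* (3.46) were lowest, and *Plin2* and *Dgat1* overlapped within each genotype. The order of the means was the same in KO. It rests on the length used, since over all annotated exons of a gene *Cd36* came before *Lpl* and *Fabp4*.

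**Figure D2:**
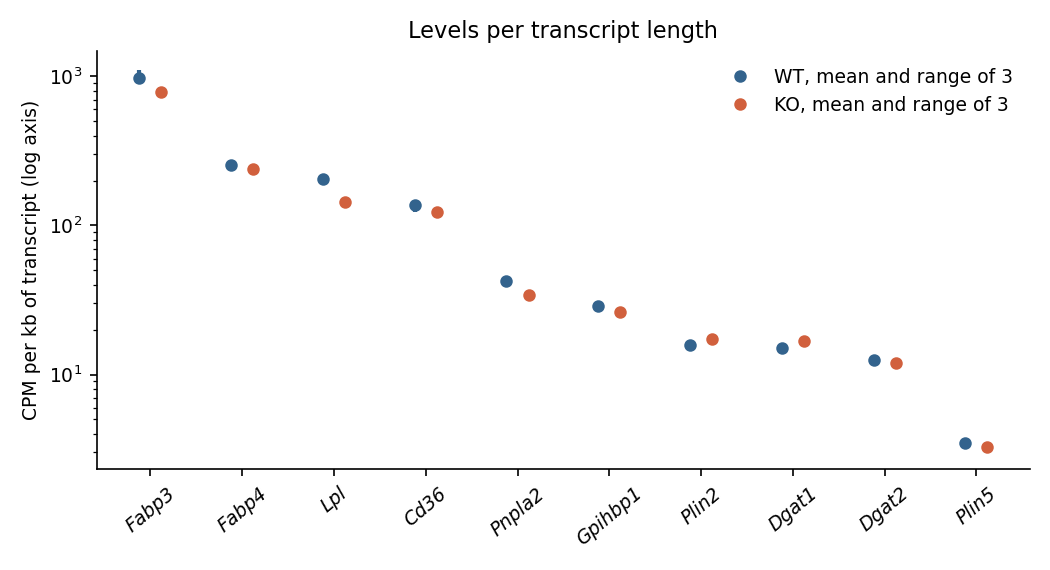
Levels of the 10 members in CPM per kb of principal transcript (y axis, log scale) are shown for WT in blue and KO in orange, as the mean (point) and the range of 3 libraries (line, mostly hidden by the point). *Fabp3* stands highest at 982 in WT and *Plin5* lowest at 3.46.

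*Lpl*, the secreted lipase, lies on the plus strand of chromosome 8 from 68880491 to 68907448 (GRCm38). It was at 838, 841 and 838 CPM in WT a, b and c and at 596, 588 and 588 CPM in KO a, b and c. The groups lay far apart relative to their spread, with all KO libraries below all WT libraries. The mean fell by 29.6%, a log2 fold change of -0.51 (SE 0.0250, adjusted p = 5.85e-15, edgeR quasi-likelihood), which stood at place 47 of 13804 when genes were ordered by p. It stayed between -0.51 and -0.50 with each library left out.

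*Gpihbp1*, the endothelial protein that carries LPL across the capillary wall, was at 24.3, 23.0 and 24.3 CPM in WT and at 22.5, 22.5 and 20.02 CPM in KO. All KO values were lower, yet the difference did not pass (log2 fold change -0.14, 95% interval -0.29 to 0.01, adjusted p = 0.154). The log2 ratio of *Lpl* to *Gpihbp1* was 5.11 to 5.19 in WT and 4.70 to 4.88 in KO.

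Of 15 further genes of lipoprotein lipolysis, 10 had a row in the table. Among these 3 were lower and 2 higher, against 15.7% and 14.6% of all genes tested. *Angptl4*, a secreted inhibitor of LPL, was at 3.36, 3.16 and 3.48 CPM in WT and at 6.41, 6.57 and 6.49 CPM in KO. It thus rose by 94.6% (log2 fold change 0.96, adjusted p = 9.91e-06), from a low level. The angiopoietin-like gene *Angptl8*, listed under its older symbol *Gm6484*, fell from 3.89 to 2.58 CPM (adjusted p = 0.0132), but was not called without WT b or without KO a (adjusted p = 0.0774 in both). *Vldlr*, the VLDL receptor, rose from 238 to 296 CPM (log2 fold change 0.31, adjusted p = 1.65e-08). *Lmf1* and *Sel1l*, which LPL needs to fold and leave the endoplasmic reticulum, had log2 fold changes of 0.11 (not called) and -0.13 (lower).

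**Figure D3:**
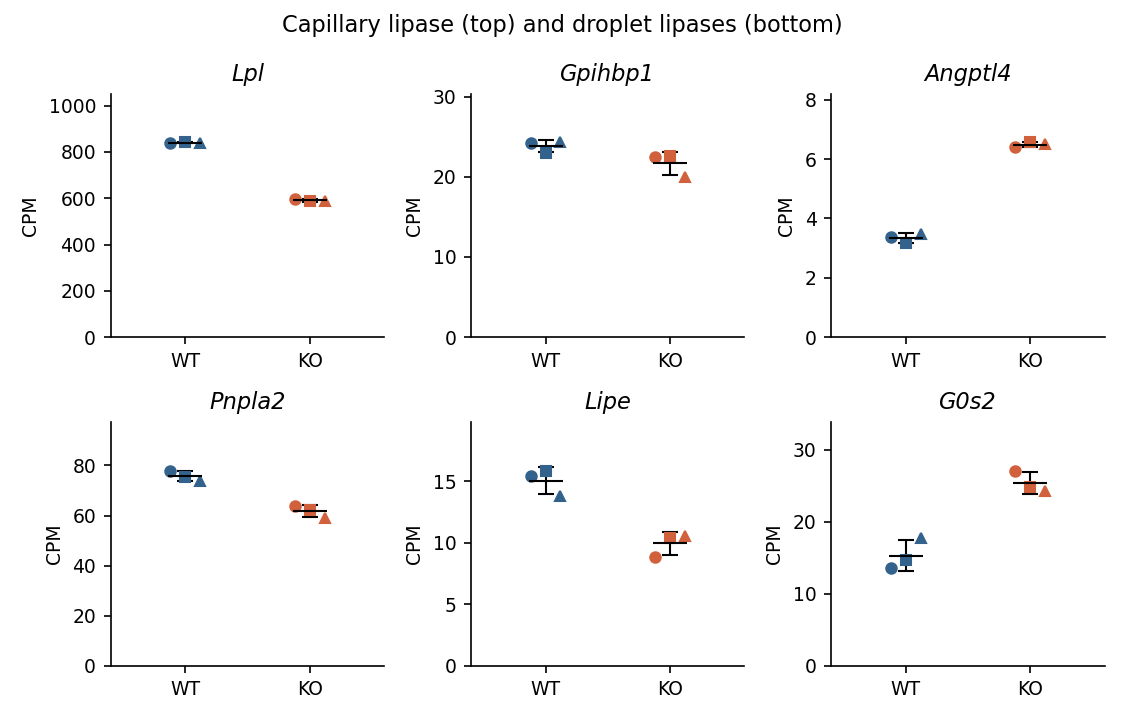
CPM of 3 genes around the capillary lipase (top row) and 3 around the droplet lipase (bottom row) is shown in each library, with the genotype on the x axis. Circles, squares and triangles are libraries a, b and c, and black marks give the mean ± SD of 3. *Lpl*, *Pnpla2* and *Lipe* are lower and *Angptl4* and *G0s2* higher in KO, with no overlap.

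*Cd36*, the membrane transporter, was at 505, 476 and 416 CPM in WT and at 410, 425 and 416 CPM in KO. WT c lay among the KO libraries, so the groups overlapped. The mean fell by 10.4% (log2 fold change -0.16, SE 0.0426, adjusted p = 0.0053). This call depended on the libraries. It was lost without WT a (log2 fold change -0.10, adjusted p = 0.0557) and with DESeq2 (adjusted p = 0.157), and without WT c the log2 fold change was -0.24.

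*Fabp3*, the binding protein of cardiomyocytes, was at 732, 781 and 912 CPM in WT and at 649, 663 and 643 CPM in KO. Every KO library lay below every WT library, and the WT spread came mostly from WT c. The mean fell by 19.4% (log2 fold change -0.31, SE 0.0450, adjusted p = 6.33e-06), and the call was kept without WT c at a log2 fold change of -0.22. WT c thus held the highest *Fabp3* and the lowest *Cd36* of its group. *Fabp3* carries an uncertainty of assignment, because 37.3% of the 50-base words of its transcript also occur in other annotated transcripts, among them the pseudogene *Fabp3-ps1*, and its exons overlap those of *Zcchc17* on the opposite strand.

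*Fabp4*, the endothelial and adipocyte form, was at 220.3, 225 and 241 CPM in WT and at 219.7, 219.95 and 199 CPM in KO. The lowest WT and highest KO libraries were nearly equal. It fell by 7.04% (log2 fold change -0.10, SE 0.0399, adjusted p = 0.0476), close to the threshold. It was not called without WT b, WT c, KO a or KO c, where adjusted p ranged from 0.0538 (without KO a) to 0.335 (without KO c, log2 fold change -0.06).

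**Figure D4:**
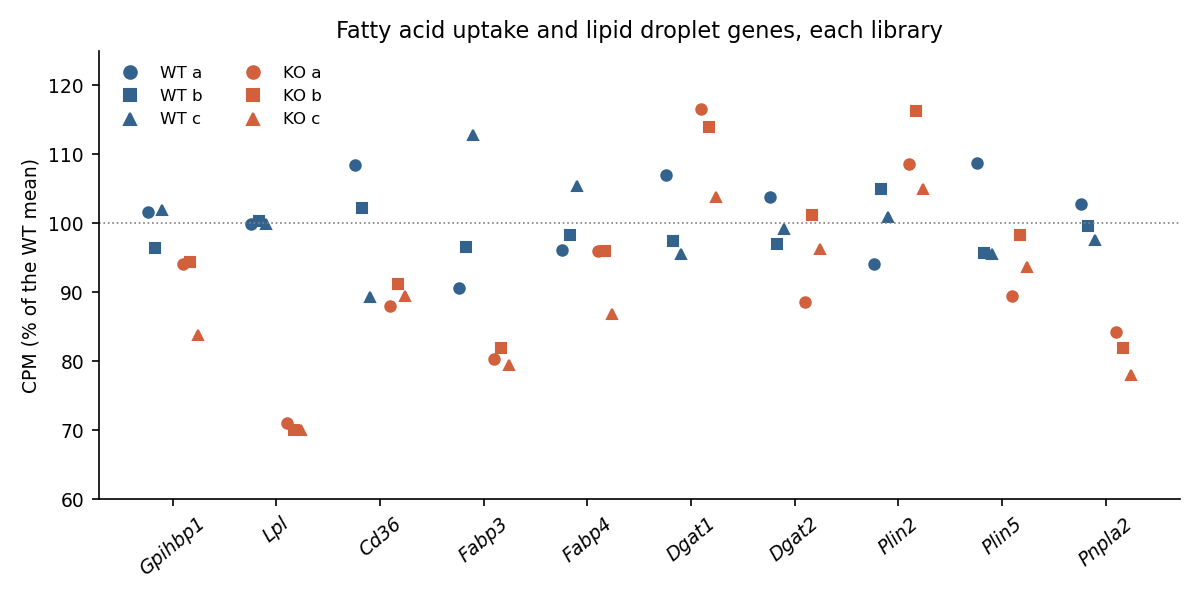
CPM of each member in each library is given as a percentage of that gene's WT mean (y axis, from 60), with WT in blue and KO in orange and libraries a, b and c as circles, squares and triangles. The *Lpl* libraries fall into 2 groups that do not overlap, whereas for *Cd36* the library WT c lies at the level of KO.

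Among 17 other genes of uptake and activation, 16 were tested, 4 were lower, 2 were higher and 10 were not called. *Slc27a3*, of the fatty acid transport protein family, rose from 2.53 to 4.70 CPM (log2 fold change 0.90, adjusted p = 3.6e-04). *Acsl4*, an X-linked acyl-CoA synthetase with a preference for arachidonate, fell from 75.3 to 60.2 CPM (-0.32, adjusted p = 1.54e-05). *Got2*, the mitochondrial aspartate aminotransferase that is also found at the plasma membrane, fell from 585 to 539 CPM (-0.12, adjusted p = 0.00107).

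NF-Y, a transcription factor that the study examined, binds CCAAT. Promoter windows from RefSeq (GRCm38.p6, 250 bases before to 50 after the annotated start) were at hand for 5 members, *Cd36*, *Fabp3*, *Pnpla2*, *Plin2* and *Plin5*, with 2 windows for *Plin5*. They were searched on both strands for CCAAT and for AGGTCA, the core site of PPAR and other nuclear receptors. The motifs did not overlap in the printed windows. Of the 5 genes, 3 held CCAAT and 3 held AGGTCA, and these were *Cd36*, *Plin2* and *Plin5* in both cases. Over all 32851 windows of that length, 37.4% held CCAAT and 16.3% held AGGTCA. A direct repeat of AGGTCA with 1 base between, the form bound by PPAR with RXR, was in 0 of the 5 and in 0.0396% of all windows. The 3 lowered members with a window and *Plin2*, which was not lowered, are printed 5′ to 3′ on the strand of the gene, with both motifs in capitals. *Cd36* is at chr5:17835847-17836146 (minus strand), *Fabp3* at chr4:130308488-130308787 (plus), *Pnpla2* at chr7:141454938-141455237 (plus) and *Plin2* at chr4:86670010-86670309 (minus).
Cd36: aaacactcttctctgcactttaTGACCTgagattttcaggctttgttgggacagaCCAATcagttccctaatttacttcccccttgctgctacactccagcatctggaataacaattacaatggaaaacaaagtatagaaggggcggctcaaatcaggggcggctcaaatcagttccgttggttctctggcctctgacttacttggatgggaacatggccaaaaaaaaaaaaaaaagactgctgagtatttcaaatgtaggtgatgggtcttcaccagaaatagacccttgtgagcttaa
Fabp3: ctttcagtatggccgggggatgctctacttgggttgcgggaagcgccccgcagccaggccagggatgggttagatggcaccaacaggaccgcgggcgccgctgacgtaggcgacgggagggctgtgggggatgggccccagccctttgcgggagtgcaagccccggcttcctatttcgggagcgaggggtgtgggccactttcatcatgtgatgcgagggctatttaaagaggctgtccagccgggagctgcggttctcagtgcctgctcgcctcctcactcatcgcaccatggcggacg
Pnpla2: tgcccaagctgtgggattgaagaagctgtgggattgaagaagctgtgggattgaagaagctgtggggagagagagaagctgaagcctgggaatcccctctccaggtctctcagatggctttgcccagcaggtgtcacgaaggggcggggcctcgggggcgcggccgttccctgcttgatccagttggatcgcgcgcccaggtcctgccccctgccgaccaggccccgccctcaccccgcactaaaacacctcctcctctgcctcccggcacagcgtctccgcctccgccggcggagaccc
Plin2: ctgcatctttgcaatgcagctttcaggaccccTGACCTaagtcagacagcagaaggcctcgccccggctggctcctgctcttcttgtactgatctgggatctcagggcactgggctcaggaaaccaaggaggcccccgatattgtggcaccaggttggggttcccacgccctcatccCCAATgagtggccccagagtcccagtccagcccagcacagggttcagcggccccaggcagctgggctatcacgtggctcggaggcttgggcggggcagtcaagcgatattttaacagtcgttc
Counted from the annotated start, CCAAT begins at -195 in *Cd36* and at -73 in *Plin2*, and AGGTCA, on the reverse strand in both (TGACCT as printed), at -228 and -218. The *Cd36* window lies inside the gene, which has 6 annotated transcripts and runs from 17781690 to 17888801. Its start is thus not the outermost start of *Cd36*. *Fabp3* and *Pnpla2*, at 65.0% and 65.3% G and C against 43.0% for *Cd36* and a median of 52.7% for all windows, hold neither motif in these letters. No window was at hand for *Lpl*, the member with the largest change. Whether these motifs go together with the changes in KO was not tested. The study itself drew on NFYa occupancy in cardiomyocytes and on NFYa protein, which was lower in KO hearts.

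Neither of the 2 enzymes of the last step was called. *Dgat1* was at 30.2, 27.6 and 27.0 CPM in WT and at 33.0, 32.2 and 29.4 CPM in KO. Its KO mean was 11.5% higher, with the groups overlapping at WT a and KO c (log2 fold change 0.16, 95% interval 0.02 to 0.29, unadjusted p = 0.0292 by edgeR, adjusted p = 0.0822). Without either of those libraries it was called as higher, with adjusted p = 0.0397 without WT a and 0.0463 without KO c. *Dgat2*, an enzyme of unrelated sequence, was at 29.2, 27.3 and 27.9 CPM in WT and at 25.0, 28.5 and 27.1 CPM in KO (log2 fold change -0.07, 95% interval -0.21 to 0.07, adjusted p = 0.462). The log2 ratio of *Dgat2* to *Dgat1* within a library was -0.05, -0.01 and 0.05 in WT and -0.40, -0.18 and -0.12 in KO. This ratio does not depend on library scaling.

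Of 16 other listed genes of glycerolipid and cholesteryl ester synthesis, 15 were tested. Among these 3 were lower and 4 higher, against 15.7% and 14.6% of all genes tested. *Agpat2*, which acylates lysophosphatidic acid, rose from 15.7 to 22.9 CPM (log2 fold change 0.54, adjusted p = 9.37e-06). *Gpat2*, an outer mitochondrial acyltransferase, rose from 3.38 to 5.69 CPM (0.75, adjusted p = 0.00104), and *Soat1*, which esterifies cholesterol, from 40.6 to 48.5 CPM (0.26, adjusted p = 0.00103). The phosphatidate phosphatases *Lpin1*, *Lpin2* and *Lpin3* were all 3 lower, with log2 fold changes of -0.17, -0.28 and -0.69. *Lpin3*, at 2.39 CPM in WT, was not called without WT a, KO a or KO b (adjusted p = 0.0778, 0.0718 and 0.0800). *Mogat2*, a monoacylglycerol acyltransferase near the limit of these libraries, was at 0.463 to 1.07 CPM in WT and 1.43 to 1.88 CPM in KO (1.04, adjusted p = 0.0107), and lost its call without WT a (adjusted p = 0.0692) and without KO c (0.0514).

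*Plin2*, the perilipin that most cells use to coat droplets, was at 27.9, 31.1 and 30.0 CPM in WT and at 32.2, 34.5 and 31.1 CPM in KO. The values of WT b and KO c were the same to 3 digits. The KO mean was 9.91% higher (log2 fold change 0.13, 95% interval -0.001 to 0.27, adjusted p = 0.126). *Plin5*, which tethers droplets to mitochondria in oxidative muscle, was the rarest member, at 7.47, 6.58 and 6.57 CPM in WT and at 6.15, 6.76 and 6.44 CPM in KO. The groups overlapped and no difference was detectable at this depth (log2 fold change -0.10, 95% interval -0.35 to 0.16, adjusted p = 0.606).

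Of 20 other genes of droplet coating and formation, 16 were tested. Among these 5 were lower and 1 higher, against 15.7% and 14.6% of all genes tested, and 10 were not called. The lowered genes included another perilipin, *Plin4*, which is abundant in muscle and fat. It was at 96.5, 95.7 and 91.3 CPM in WT and at 70.2, 69.0 and 71.7 CPM in KO, and fell by 25.6% (log2 fold change -0.43, adjusted p = 1.99e-08). *Plin3* had a log2 fold change of -0.03 and was not called. *Spg20* (spartin, which binds droplets) fell from 49.5 to 41.0 CPM (-0.27, adjusted p = 4.08e-04). *Fitm1*, a muscle protein that promotes droplet formation, fell from 22.7 to 17.6 CPM (-0.36, adjusted p = 0.00793) but was not called without WT c (log2 fold change -0.21, adjusted p = 0.0604) or KO a (-0.28, 0.0825), while its paralog *Fitm2* was higher (0.26).

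*Pnpla2*, encoding ATGL, lies on the plus strand of chromosome 7 from 141455198 to 141460743 (GRCm38). It was at 77.9, 75.5 and 74.0 CPM in WT and at 63.9, 62.1 and 59.1 CPM in KO. All KO libraries lay below all WT libraries. The mean fell by 18.6% (log2 fold change -0.30, SE 0.0474, adjusted p = 2.5e-05), and the log2 fold change stayed between -0.32 and -0.27 in all 16 alternative settings.

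Of 12 further lipolysis genes 9 were tested, 3 were lower and 2 higher, against 15.7% and 14.6% of all genes tested. *G0s2*, a direct protein inhibitor of ATGL, was at 13.6, 14.6 and 17.7 CPM in WT and at 27.1, 24.9 and 24.2 CPM in KO. It rose by 66.0% (log2 fold change 0.74, adjusted p = 1.97e-07). *Abhd5*, the ATGL co-activator, had a log2 fold change of -0.03 and was not called. *Lipe*, the hormone-sensitive lipase that acts on diacylglycerol after ATGL, was at 15.5, 15.9 and 13.8 CPM in WT and at 8.85, 10.4 and 10.6 CPM in KO (-0.60, adjusted p = 3.1e-05). *Pnpla8*, a calcium-independent phospholipase of the ATGL family, fell from 88.0 to 75.9 CPM (-0.22, adjusted p = 0.0016). *Mgll*, the monoacylglycerol lipase of the last step, was not called (-0.04). The log2 ratio of *Pnpla2* to *Plin2* was 1.28 to 1.48 in WT and 0.85 to 0.99 in KO.

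**Figure D5:**
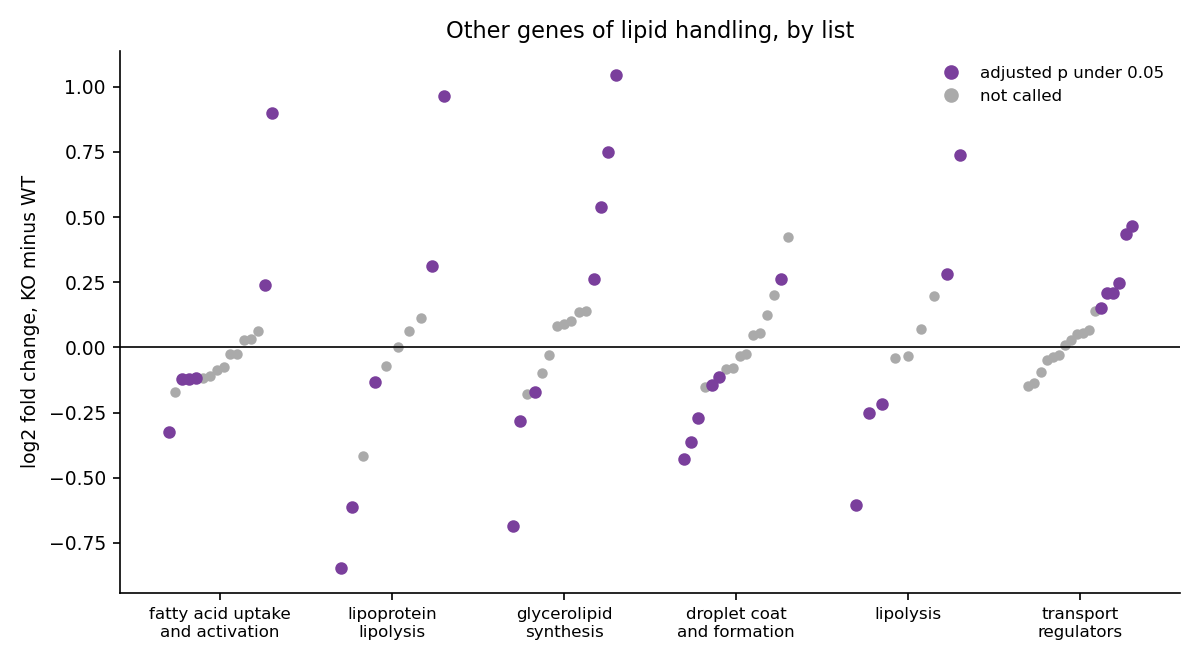
The log2 fold change (y axis, KO minus WT) of each tested gene in 6 lists of related lipid genes is plotted by list (x axis), sorted within a list. Purple points were called at an adjusted p below 0.05 and grey points were not. Of the 18 regulators at the right 6 were called, all as higher, where 14.6% of all genes tested were higher and 15.7% lower. The lists were chosen with earlier results of these data known.

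Because a ratio of counts within a library is free of scaling, 9 log2 ratios were compared, each by a two-sided exact permutation test over the 6 libraries, whose smallest possible p is 0.10. The ratios *Fabp4* to *Fabp3* (difference 0.20), *Dgat2* to *Dgat1* (-0.23), *Plin5* to *Plin2* (-0.23), *Lpl* to *Gpihbp1* (-0.37) and *Pnpla2* to *Plin2* (-0.43) each reached that limit (exact p = 0.10, adjusted 0.15 over 9). The difference in *Plin5* to *Plin2* was -0.12 without WT a, and that in *Dgat2* to *Dgat1* was -0.14 without KO a. Against the summed counts of 12 endothelial markers, the ratio of *Lpl* differed by -0.44 (exact p = 0.10, adjusted 0.15). The ratios of *Gpihbp1*, *Fabp4* and *Cd36* to the same sum overlapped between genotypes, with differences of -0.07, -0.04 and -0.09 (exact permutation p = 0.40, 0.70 and 0.40). These small differences moved with single libraries. That of *Gpihbp1* was -0.01 without KO c, that of *Fabp4* ranged from -0.07 without KO a to 0.01 without KO c, and that of *Cd36* from -0.18 without WT c to -0.02 without WT a. None could pass 0.05 with 3 libraries a group.

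The 12 endothelial markers summed to 1249 to 1275 CPM in WT and 1189 to 1212 CPM in KO, and 6 of them were lower and 2 higher. Of the cardiomyocyte markers 10 were lower and 2 higher, with a median log2 fold change of -0.21 and values from -0.46 (*Myh6*) to 0.10 (*Mybpc3*). The 10 fibroblast markers summed to 4040 to 4083 CPM in WT and 3756 to 3824 CPM in KO, and 5 were lower and 0 higher. The 11 macrophage markers with a row overlapped in sum, at 79.3 to 86.3 CPM in WT and 78.1 to 88.3 CPM in KO, with 2 lower (the complement genes *C1qa* and *C1qc*), 0 higher and 9 not called. Atrial markers with a row (7 of 9) summed to 611 to 616 CPM in WT and 1028 to 1052 CPM in KO. Of these, *Nppa*, *Myl4*, *Myl7* and *Dkk3* were higher, and *Nr2f1*, *Nr2f2* and *Stard10* were not called (log2 fold changes -0.23, 0.06 and -0.09). Of 8 adipocyte markers, *Pparg* alone had a row, at 5.56 to 6.49 CPM in WT and 5.21 to 6.41 CPM in KO. Of 8 brown fat markers 6 had a row, summing to 189 to 203 CPM in WT and 183 to 190.1 CPM in KO, with 1 lower and 0 higher. Most of that sum was *Cox7a1* (89.0 CPM in WT, the lowered gene) and *Prdm16* (74.1 CPM in WT), while *Ucp1* and *Elovl3* had no row. The part of these marker differences in the results above was not tested.

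Of 18 listed regulators of fatty acid transport, 0 were lower and 6 were higher at an adjusted p below 0.05, where 15.7% of all genes tested were lower and 14.6% higher. For 2 more with a value below 0 and 1 more above 0, edgeR's unadjusted p was below 0.05. *Ppara*, the nuclear receptor that drives genes of fatty acid use in heart muscle, was at 69.8, 68.4 and 66.8 CPM in WT and at 92.3, 93.1 and 97.7 CPM in KO (log2 fold change 0.47, adjusted p = 5.13e-09). *Flt1*, a receptor of VEGFB, rose from 144 to 167 CPM (0.21, adjusted p = 5.2e-05), as did *Apln*, the X-linked gene of the endothelial ligand apelin, from 23.7 to 32.0 CPM (0.43, adjusted p = 8.25e-06). *Pparg* and *Rxra* were not called (-0.05 and 0.07). Over the 84 tested genes of all 6 lists, 18 were lower, 17 higher and 49 not called, so that 41.7% were called against 30.3% of all genes tested. Their median log2 fold change was -0.03. The lists were drawn up with earlier results of these data known, so these shares describe the lists and are no test of them.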

How the data were processed

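Per the labels and the study's methods, total RNA was depleted of ribosomal RNA (KAPA RiboErase, KAPA RNA HyperPrep) and sequenced in paired ends. The submitters' processing notes name cutadapt 1.18, HISAT2, StringTie and mm10. The counting program, its annotation and its use of strand are not given in the sources used here. The authors deposited unnormalized counts for each gene symbol and library, beside their own edgeR log2 fold changes, mean log2 CPM and p-values, which were not used. The table lists genes with at least 59 counts over 6 libraries.

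Here, counts were analysed with edgeR 4.0.16 in R 4.3.3: filterByExpr by genotype (13804 genes kept), TMM, glmQLFit and glmQLFTest on genotype without covariates. P-values were adjusted by Benjamini-Hochberg over all genes kept. Intervals of 95% use the same fit. A limit of 3 counts equals 0.153 to 0.197 CPM and covers counting error only. Alternatives were RLE and upper quartile scaling, TMM without *Rn45s*, DESeq2 1.42.0, edgeR's exact and likelihood ratio tests, limma voom (3.58.1), other filters, X and Y left out, and single libraries left out. The code was tested on simulated counts. Ratios were compared by exact permutation. Coordinates and lengths are from GENCODE M21 (GRCm38), and 4 listed genes were found by an older symbol. The study states biological replicates without naming litters.

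The members and the lists were chosen with earlier results of these data known. Named are all members, genes of each list called with at least 1.5-fold change, also the 3 called genes of each list with the smallest adjusted p, and *Pkm*. *Lmf1*, *Sel1l*, *Lpin1*, *Plin3*, *Fitm2*, *Abhd5*, *Mgll*, *Rxra*, *Pparg* and the cardiomyocyte, macrophage, atrial and brown fat markers were named after their values were seen. A gene of the lists that met this rule is not reported here by name, though it is counted.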

Additional observations from a re-analysis of the deposited data

How the results depend on the processing

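No paired analysis was possible because the count columns name the genotype alone, without the numbers of the labels. All 10 members kept their direction in all 16 alternative settings. *Lpl*, *Fabp3* and *Pnpla2* were called in all 16, *Cd36* in 14 and *Fabp4* in 7, while *Gpihbp1*, *Dgat2*, *Plin2* and *Plin5* were called in 0 and *Dgat1* in 2. The number of members called as lower was 3 with DESeq2 against 5, and 4 to 5 with a library left out. The number called as higher was 0 to 1 with a library left out, against 0.

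The log2 fold change of *Cd36* was -0.16 with DESeq2 (adjusted p = 0.157) and -0.24 to -0.10 with a library left out. *Fabp4* lost its call with upper quartile scaling (-0.086, adjusted p = 0.115) and DESeq2 (-0.105, 0.113). It also lost it with edgeR's exact test (-0.105, 0.0802) and likelihood ratio test (-0.105, 0.0572), and at least 10 counts in every library (-0.103, 0.0532). Its log2 fold change was -0.105 in the main fit and -0.133 to -0.058 with a library left out. That of *Dgat1* was 0.12 to 0.21 with a library left out. The cause was not tested. Upper quartile scaling moved the median of all genes to 0.0204. Over all settings, 1639 to 2306 genes were lower and 1362 to 2301 higher, and of the 84 list genes 12 to 19 and 15 to 19.

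In all 63 alternatives the differences of the 9 ratios moved by less than the larger SD of the genotypes, though some moved by over 1.5 times, and the *Fabp4* ratio to endothelial markers turned from -0.04 to 0.01 without KO c. Of the 22 list genes named by rule, *Gm6484*, *Lpin3*, *Mogat2* and *Fitm1* lost a call in some setting. For differences as small as those of *Plin5*, at 100 to 129 counts a library, the depth limits what can be seen.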
